A study of Mus musculus with 14 samples.

Results

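CpG-rich sites away from promoters were the H3K27ac sites with a middle over 3 kb from every annotated transcription start site (TSS) and with a sequence of 55% GC or more and an observed/expected CpG ratio of 0.6 or more. The ratio sets the number of CpG dinucleotides against the number that the C and G content of the sequence would give by chance pairing. Of 122228 sites in the list, 226 met these limits. They made up 0.266% of the 84924 sites over 3 kb from a TSS, referred to as distal sites, and 2.99% of the 7546 CpG-rich sites at any distance. The study followed acetylation of lysine 27 of histone H3 (H3K27ac) by ChIP-seq in immortalised mouse embryo fibroblasts (iMEF) after acute loss of ASH2L, which the COMPASS/KMT2 complexes need for methylation of lysine 4 on this histone. In all groups the floxed endogenous Ash2l alleles had been recombined and a lentivirus supplied human ASH2L with an FKBP12F36V tag, which the molecule dTAG-13 directs to degradation. The 12 H3K27ac libraries were from control cells without dTAG and from cells after 30 min, 2 h, 4 h, 8 h or 16 h of dTAG, with 2 libraries each, and 1 input library each came from control cells and from cells after 16 h. The ChIP-seq cells were 1 clone (NG3) according to the methods of the study. Replicates were merged for peak calling, and peaks from all samples were later joined into the list, so a site had a position only. There was no read depth, no replicate error and no time course for any site.

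CpG islands (CGIs) are stretches in which CpGs have been retained, largely because they stay free of DNA methylation in the germ line, and most of them hold promoters. Those without a known promoter are called orphan CGIs and can lie within genes or between them, where they are known to serve as alternative promoters, as parts of enhancers or as Polycomb targets, while coding exons can be CpG-rich because of the codons they contain. H3K27ac marks active promoters and enhancers, and at most distal enhancers of differentiated cells the underlying sequence has few CpGs. As a check of the cell type, 9 of 10 fibroblast marker genes (all but Col1a1) had an H3K27ac site within 1 kb of a TSS, compared to 3 of 10 markers of other cell types (Cd68, Cdh5 and Krt8). Of all protein-coding genes, 11597 of 21681 (53.5%) had such a site, so these small counts are a coarse check.

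The sequences of 6 short distal CpG-rich sites are given to show how densely CpGs can be packed. They are those with most CpGs among the sites of at most 300 bp, 2 each in coding exons, introns and intergenic DNA. They were read from GRCm38 on the plus strand, 5′ to 3′, with every CpG in capitals.
Nova2, coding exon, chr7:18957862-18958067: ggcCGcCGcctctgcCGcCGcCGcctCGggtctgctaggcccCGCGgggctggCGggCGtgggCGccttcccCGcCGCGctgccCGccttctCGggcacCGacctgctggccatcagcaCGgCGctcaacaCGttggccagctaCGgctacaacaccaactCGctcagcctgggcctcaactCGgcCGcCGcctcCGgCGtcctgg
Fat1, coding exon, chr8:45009822-45010086: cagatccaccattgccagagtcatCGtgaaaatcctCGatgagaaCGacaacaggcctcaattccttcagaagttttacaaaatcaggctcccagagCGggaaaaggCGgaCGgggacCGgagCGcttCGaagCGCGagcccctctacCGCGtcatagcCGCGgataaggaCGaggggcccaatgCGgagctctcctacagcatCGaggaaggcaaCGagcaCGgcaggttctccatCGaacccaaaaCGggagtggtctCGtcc
Sptbn4, intron, chr7:27361728-27362007: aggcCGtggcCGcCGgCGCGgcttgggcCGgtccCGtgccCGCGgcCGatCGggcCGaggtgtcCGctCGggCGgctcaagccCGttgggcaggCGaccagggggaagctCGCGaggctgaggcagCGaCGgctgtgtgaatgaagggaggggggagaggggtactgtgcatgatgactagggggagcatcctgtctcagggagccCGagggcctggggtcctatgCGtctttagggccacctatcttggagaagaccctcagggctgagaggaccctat
Hsf5, intron, chr11:87639155-87639375: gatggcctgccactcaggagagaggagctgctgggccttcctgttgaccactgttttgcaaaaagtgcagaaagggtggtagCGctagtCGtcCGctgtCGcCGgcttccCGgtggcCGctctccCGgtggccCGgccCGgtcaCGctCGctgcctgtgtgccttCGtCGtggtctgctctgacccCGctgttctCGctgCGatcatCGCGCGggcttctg
Bcor neighbourhood, intergenic, chrX:11807316-11807601: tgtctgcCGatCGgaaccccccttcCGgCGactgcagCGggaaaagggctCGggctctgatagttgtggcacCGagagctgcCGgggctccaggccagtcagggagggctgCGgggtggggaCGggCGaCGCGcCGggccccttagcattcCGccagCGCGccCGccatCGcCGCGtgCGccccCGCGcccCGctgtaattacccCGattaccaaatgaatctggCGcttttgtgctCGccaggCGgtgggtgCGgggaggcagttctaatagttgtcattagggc
Rny3 neighbourhood, intergenic, chr6:47740289-47740582: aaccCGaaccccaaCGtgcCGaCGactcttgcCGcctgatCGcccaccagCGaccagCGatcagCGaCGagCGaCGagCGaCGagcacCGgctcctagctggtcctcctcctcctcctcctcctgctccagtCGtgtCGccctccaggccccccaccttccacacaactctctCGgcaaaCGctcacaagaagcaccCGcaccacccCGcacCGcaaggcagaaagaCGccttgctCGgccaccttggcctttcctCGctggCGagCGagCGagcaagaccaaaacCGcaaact

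In the exon of Nova2, which encodes a neuronal splicing regulator, 27 CpGs were found in 206 bp (GC content 75.7%, CpG ratio 0.94). The exon of Fat1, an atypical cadherin, had 23 CpGs in 265 bp, with a lower GC content of 57.7% and a CpG ratio of 1.04. Per 100 bp this was 13.1 CpGs for the Nova2 site and 8.68 for the wider Fat1 site. The intronic sites of Sptbn4, a spectrin of the axonal membrane skeleton, and of Hsf5, a member of the heat shock factor family, contained 23 CpGs in 280 bp and 20 CpGs in 221 bp. In both introns the CpGs were gathered in a part of the site, whereas those of the Nova2 exon were spread over its length. The intergenic site in the wider neighbourhood of Bcor had 30 CpGs in 286 bp. Bcor had the nearest protein-coding TSS, 273094 bp away, and the nearest gene of any kind was Gm26314, at 43025 bp. The other intergenic site had 29 CpGs in 294 bp. It is labelled by its nearest gene of any kind, Rny3, a small non-coding RNA gene 41188 bp away.

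**Figure D1:**
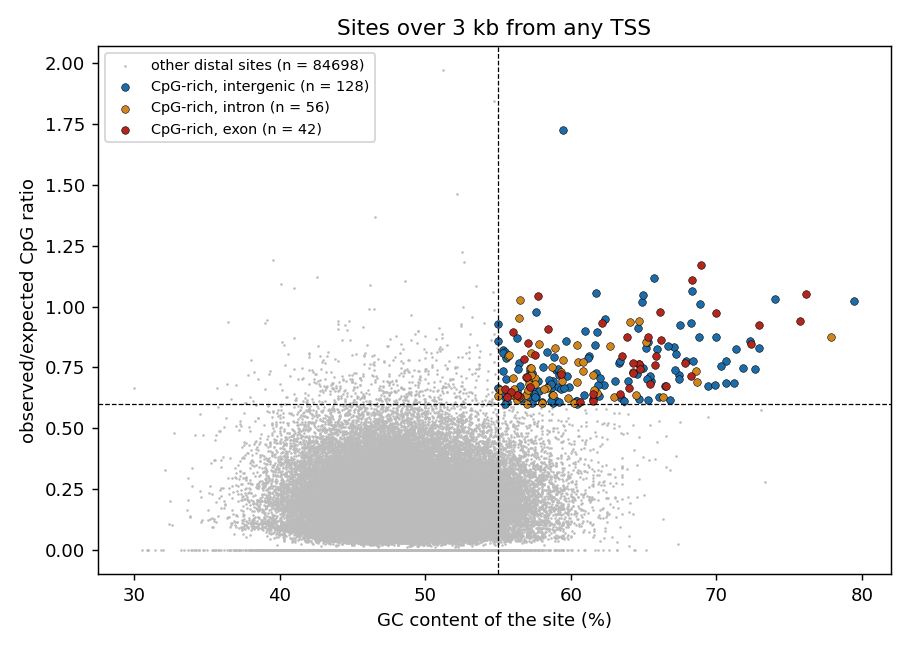
GC content (x axis, %) against observed/expected CpG ratio (y axis) of every site over 3 kb from a TSS. Each point is 1 site, dashed lines are the limits of 55% and 0.6, grey points are the 84698 other distal sites, and colours give the place of the 226 CpG-rich sites, which are separated from the grey mass at low CpG ratios and are of all 3 colours throughout.

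Base composition chose these sites and is given as a description. Their median GC content was 60.4% (quartiles 57.3 and 65.2%), compared to 48.1% at other distal sites, and their median CpG ratio was 0.72 compared to 0.18. They had a median of 33 CpGs (quartiles 21 and 60), or 6.45 per 100 bp, whereas other distal sites had a median of 4, or 1.0 per 100 bp. GC content was met far more often than the CpG ratio, by 4051 compared to 790 of the 84924 distal sites. CpG-rich sites within 1 kb of a TSS, of which there were 7152, had a median GC content of 61.3% and a median CpG ratio of 0.77, close to the values of the distal ones. The plot of GC content against CpG ratio shows that intergenic, intronic and exonic sites overlapped in both measures.

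The sites nearest to each limit are given as a description. Those just inside the distance limit were 3004 bp (intron of the nonagouti gene, a) and 3022 bp (intron of Zcchc2) from a TSS, and the CpG-rich sites just outside were at 2998 and 2910 bp. Just inside the GC limit were intergenic sites of 200 bp and 340 bp with a GC content of 55%, and just outside it were an intergenic site of 1104 bp with 54.98% and an exonic site of 406 bp in Sox9, a chondrogenic transcription factor, with 54.9%. At the CpG ratio limit, intergenic sites of 220 bp and 501 bp just inside had 0.60, and intergenic sites of 279 bp and 2006 bp just outside had 0.599 and 0.598.

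With the GENCODE starts and the limit of 3 kb, most distal CpG-rich sites were found between genes. Compared to other distal sites, larger shares lay in intergenic DNA and in exons and a smaller share lay in introns. The middle of 128 sites (56.6%, 95% Wilson interval 50.1 to 62.9%) was intergenic, that of 56 (24.8%, interval 19.6 to 30.8%) was in an intron and that of 42 (18.6%, interval 14.1 to 24.2%) was in an exon. Among the 84698 other distal sites, 36.8% were intergenic, 59.3% intronic and 3.98% exonic. Intervals cover counting error only. The share in exons was higher on 18 of 20 chromosomes, by 14.1 ± 13.1 percentage points (mean ± SD over 20 chromosomes, with p = 7.15e-05 from exact sign-flip permutation, two-sided and adjusted over the 6 differences tested). The share in introns was lower on 19 of 20 chromosomes, with a mean difference of -35.2 ± 19.1 points (adjusted p = 2.29e-05, exact sign-flip permutation). For intergenic DNA it was higher on 17 of 20, by 21.1 ± 20.6 points (adjusted p = 0.000122, exact sign-flip permutation). The chromosomes served as units, and therefore p measures how steady a difference was from chromosome to chromosome, not an error between replicates.

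**Figure D2:**
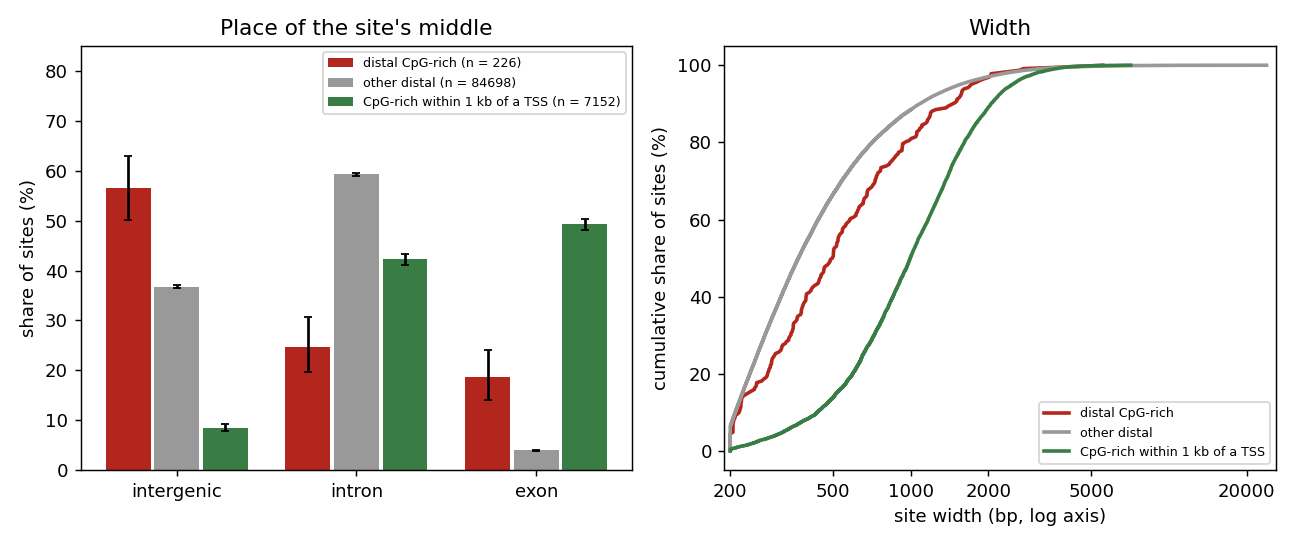
Left, share of sites (y axis, %) with the middle in intergenic DNA, introns or exons, with 95% Wilson intervals as error bars. Right, cumulative share of sites (y axis, %) by width (x axis, bp, log axis). Distal CpG-rich sites exceed other distal sites in intergenic DNA (56.6 compared to 36.8%) and exons (18.6 compared to 3.98%), and over most of the range their width curve runs between those of other distal sites and CpG-rich sites at TSSs.

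The intergenic difference depended on which transcript starts were used. With RefSeq starts including predicted transcripts, in place of GENCODE, it was 3.54 points (adjusted p = 0.376, same exact permutation test), and with starts of protein-coding transcripts it was 1.99 points (adjusted p = 0.569). Each choice of starts both removed and added CpG-rich sites. The sets had 278 and 488 sites, of which 37.8 and 37.5% were intergenic. Whether the removed or the added sites changed the difference was not tested. The differences in exons and introns kept their direction and remained below 0.05 in all alternatives run. Of the 226 sites, 62 (27.4%, interval 22.0 to 33.6%) were within 3 kb of some RefSeq start, compared to 5.45% of other distal sites, and 43 were within 1 kb. By place, this applied to 44 of the 128 intergenic sites (34.4%), to 12 of the 56 intronic sites (21.4%) and to 6 of the 42 exonic sites (14.3%). Curated RefSeq starts were within 1 kb of 9 sites. Among these were sites whose nearest GENCODE protein-coding TSS was that of Chd7, a chromatin remodeller (43217 bp away), or Zfp217, a zinc finger protein (41885 bp). For others it was that of Arid1b, a subunit of the BAF remodelling complex (86802 bp), or Arhgap32 (83324 bp).

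Within exons, the sites were mostly in coding sequence. The middle of 31 of the 42 exonic sites (73.8%) was in a coding exon, that of 9 was in an untranslated region and that of 2 in an exon of a non-coding transcript. Of the 3373 other distal sites in exons, 35.1% were in coding sequence and 38.7% in untranslated regions. A high exonic share was not particular to the distal CpG-rich sites. Among CpG-rich sites 1 to 3 kb from a TSS, 36.3% were exonic, and 82.0% of these were in coding exons. Within 1 kb of a TSS, 49.2% of CpG-rich sites were exonic, and 34.5% of these were in coding exons. Stated by place, 2.55% (interval 1.803 to 3.60%) of all distal sites in coding exons were CpG-rich, compared to 0.684% in untranslated regions, 0.409% in intergenic DNA and 0.111% in introns. The exonic sites were in genes of varied roles, including the signalling ligands Wnt10a and Fgf23, the hormone precursor gene Pomc, the hair follicle protein gene Tchh, the phospholipid flippase gene Atp8b1 and the small Maf factor gene Maff. Exonic sites had a median width of 445.5 bp, intergenic sites 494.5 bp and intronic sites 525.5 bp.

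The gene bodies that held a site were mostly hit once. A gene of any kind was present at 98 of the 226 sites, a protein-coding gene at 85 and non-coding genes alone at 13. The 85 sites were distributed over 76 protein-coding genes, of which 69 had 1 site and 7 had 2 or more. Within these genes the sites lay towards the 3′ end. The median position was 72.1% of the gene length from the 5′ end (quartiles 46.3 and 91.6%), compared to 49.1% (quartiles 26.4 and 73.9%) for other distal sites. The last 20% of the gene held 42.4% of the 85 sites and the first 20% held 11.8%, compared to 18.8% and 17.9% of other distal sites. The limit of 3 kb from any TSS applied to both sets, but in a short gene it leaves only late positions. Host genes included short ones such as Cbx8 (4665 bp) and Pomc (5692 bp). Gene lengths were not compared between the 2 sets, so the share of the shift that follows from the limit is not known. This difference in position was not tested.

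Bcor, which encodes a corepressor of a variant Polycomb complex, held the most sites, with 5 that covered 8503 bp in sum. Genes with 2 sites were Zfp503 and Zfp771, which encode zinc finger proteins, Synpo, which encodes an actin-associated protein of kidney podocytes, the splicing regulator gene Nova2, the uncharacterised E130114P18Rik, and Nfib, which encodes a nuclear factor I transcription factor. The sites of Nova2, Zfp771, Synpo and Zfp503 were all in exons, whereas those of Nfib and E130114P18Rik were in introns. The non-coding genes Gm49482 and Gm11266 also held 2 each, those of Gm11266 being the same sites as in Nfib. Of genes with 1 site, Lncppara, Prr7 and Ebf3 had the widest, at 4069, 2728 and 2634 bp.

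Gene lists were compared by the share of genes holding a CpG-rich site among those with any distal site in the gene body. Over all protein-coding genes this was 76 of 6071 (1.25%). Collagens reached 3 of 32 (9.38%), with sites in coding exons of Col4a1, a chain of basement membrane collagen, and Col12a1, a fibril-associated collagen, and in an intron of Col8a1. Among laminins, integrins and other genes of matrix adhesion it was 2 of 35 (5.71%), namely a coding exon of the laminin chain gene Lamc1 and an intron of the integrin gene Itgb4. A list of developmental factors of the Meis, Pbx, sine oculis, Prrx, Lhx, Pitx, Tbx, Fox and Sox families gave 2 of 29 (6.90%), both in untranslated regions, of Foxc1 (a mesenchymal forkhead factor) and of Sox11. This list did not include all homeobox and T-box genes, and Evx2, a homeobox gene outside it, had a site in a coding exon. No gene held a site among 21 of the TGF-beta and BMP pathway, 9 of the H3K4 methylation machinery and 7 imprinted genes, and no HOX gene had any distal site in its body. These shares do not allow for the number of distal sites per gene. Counted by sites, the nearest protein-coding TSS was that of a collagen for 1.33% of distal CpG-rich and 0.967% of other distal sites. For matrix adhesion this was 0.442 and 0.741%, and for the TGF-beta and BMP pathway 0.442 and 0.882%. For developmental factors it was 2.65 and 1.34%, and for the H3K4 methylation machinery 0.442 and 0.0201%. Imprinted and HOX genes had 0, compared to 0.168 and 0.0142%. All these counts are small, gene lengths differ between lists, and the shares were not tested.

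The distal CpG-rich sites were wider than other distal sites and narrower than CpG-rich sites at TSSs. They had a median width of 499 bp (quartiles 301.5 and 842.5 bp) and ranged from 200 to 5547 bp. The median was 367 bp (255 and 613 bp) at other distal sites and 995 bp (654 and 1469 bp) at CpG-rich sites within 1 kb of a TSS. The log2 ratio to other distal sites was 0.53 ± 0.45 (mean ± SD over 20 chromosomes) and above 0 on 18 of them (adjusted p = 7.15e-05, exact sign-flip permutation). It fell to 0.12 with a GC limit of 50% (adjusted p = 0.158, same exact permutation test) and to 0.12 when composition was measured outside repeats (adjusted p = 0.194). In width bands, the CpG-rich share of distal sites was 0.184% (interval 0.142 to 0.238%) from 200 to below 300 bp, 0.221% up to 500 bp, 0.369% up to 1000 bp and 0.492% (interval 0.356 to 0.68%) up to 2000 bp. At 2000 bp and above it was 0.318%, from 8 sites, and its interval of 0.161 to 0.627% overlapped those of all other bands.

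Of the 8 widest sites, 2 were in the neighbourhood of Bcor. The widest was in an intron of this gene (chrX:12086701-12092247, 5547 bp) and contained 417 CpGs at a GC content of 64.3%. It was followed by a site in an intron of the long non-coding RNA gene Lncppara (chr15:85668712-85672780, 4069 bp) with 290 CpGs. A site over a coding exon of Prr7, which encodes a synaptic membrane protein, was 2728 bp wide and had 205 CpGs. In an intron of Ebf3, a transcription factor of the early B cell factor family, a site measured 2634 bp with 170 CpGs. The site at Pura, a nucleic acid-binding protein, was 2324 bp wide and had 169 CpGs, and that at Foxc1 was 2013 bp wide and had 128 CpGs. Of the 2 intergenic sites of this group, that of 2047 bp was 35102 bp upstream of the TSS of Acot11 (an acyl-CoA thioesterase). It lay 1661 bp from Gm12746, and a RefSeq start outside the curated set was 61 bp from its middle. The other, of 2039 bp, was 74014 bp downstream of the nearest Bcor TSS. All 8 overlapped a CGI.

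CpGs were packed most densely, among sites of at least 300 bp, in an intergenic site of 658 bp on chromosome 17 (chr17:23699452-23700109), with 15.3 CpGs per 100 bp and a GC content of 79.5%, the highest of all 226. A coding exon of Fbrsl1 had 15.1 per 100 bp over 449 bp. An intergenic site of 929 bp, 83324 bp upstream of the Arhgap32 TSS, had 14.0 and a coding exon of Zfp771 had 13.7. An intron of Macrod1, a mono-ADP-ribosylhydrolase, had 13.2 and a coding exon of Maff had 12.8. Both exonic and non-exonic sequences were thus among the 6 densest.

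Intergenic sites were usually not far from a gene. Their median distance to the nearest gene of any kind was 8133 bp (quartiles 3570 and 15760 bp), and 102 of the 128 had a gene within 20 kb. The nearest protein-coding TSS lay so that 77 were upstream and 51 downstream of it. The 4 most isolated sites were a site of 765 bp, 67898 bp from Efnb1 (an ephrin ligand), 2 adjoining sites of 1144 and 897 bp at 67108 and 66022 bp from the non-coding Gm47110, and a site of 222 bp on chromosome 15 at 63982 bp from Gm24080. A predicted RefSeq start lay 901 and 114 bp from the pair, and the last of these sites had 80.2% repeat sequence. Distance from a TSS was used by the rule. Its median was 9117 bp, compared to 15830 bp for other distal sites, and 9 sites were over 50 kb away, up to 192961 bp for a site in an intron of Hs6st2, a heparan sulfate sulfotransferase.

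The protein-coding gene with the nearest TSS had an H3K27ac site within 1 kb of a TSS for 156 of the 226 sites (69.0%, interval 62.7 to 74.7%). For other distal sites this was 79.8%, and 53.5% of all protein-coding genes had such a site. The nearest gene had a CpG-rich site at a TSS in 44.2% (interval 37.9 to 50.8%) of the cases, compared to 50.6% of other distal sites. Developmental transcription factors were among the nearest genes, such as En1, Dlx2, Tbr1, Evx2, Nr2f2, Meis1, Foxa1 and Emx2, which were named after the positions had been seen. Of these 8 genes, only Meis1 and Foxa1 belonged to the list of developmental factor families given above. A gene of that list was nearest to 6 sites (2.65%), compared to 1.34% of other distal sites, and the other genes just named are not in this count.

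**Figure D3:**
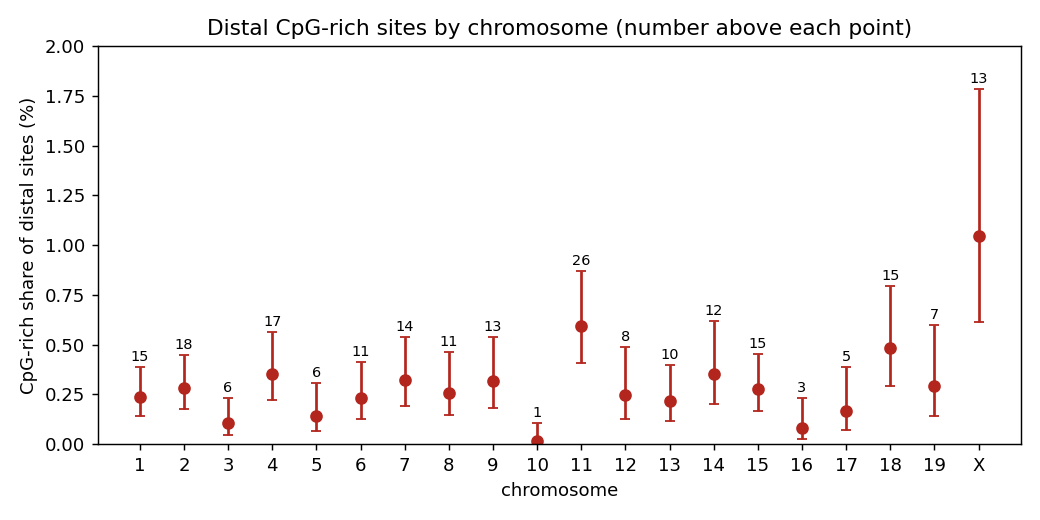
CpG-rich share of the sites over 3 kb from a TSS (y axis, %) for each chromosome (x axis), with 95% Wilson intervals as error bars and the number of CpG-rich sites above each point. The X chromosome, with 13 sites, lies at 1.05%, above the autosomes at 0.0186 to 0.595%.

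The share of distal sites that were CpG-rich varied between chromosomes. On the autosomes it was 0.262 ± 0.135% (mean ± SD, n = 19 chromosomes), with chromosome 10 lowest (1 of 5382 sites, 0.0186%, interval 0.00328 to 0.105%) and chromosome 11 highest (26 of 4372, 0.595%, interval 0.406 to 0.87%). The X chromosome had 13 of 1242 (1.05%, interval 0.613 to 1.78%). This value rested on the neighbourhood of Bcor, since 9 of the 13 were within 500 kb of its 5′ end. Elsewhere on the X chromosome the share was 4 of 1206 (0.332%, interval 0.129 to 0.85%), which overlaps the pooled autosomal share of 0.255% (interval 0.223 to 0.291%).

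Around Bcor, 46 H3K27ac sites lay within 500 kb of the 5′ end of the gene, and 36 of these were distal. Most of the 36 were downstream of the 5′ end in the direction of transcription, and so were all 9 CpG-rich ones among them. Of the 9 CpG-rich sites, 5 lay within the gene, at 24.5, 25.8, 26.7, 70.9 and 82.9 kb. The 3 at 24.5 to 26.7 kb measured 437, 337 and 989 bp. The other two were the site of 5547 bp and a site of 1193 bp. Beyond the gene, sites followed at 154, 161, 353 and 496 kb, with widths of 2039, 286, 286 and 1003 bp. CpG-rich sites within 3 kb of a TSS were interspersed with those in the gene. In sum the 9 sites had 890 CpGs in 12117 bp, which was 7.82% of all bases in distal CpG-rich sites.

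**Figure D4:**
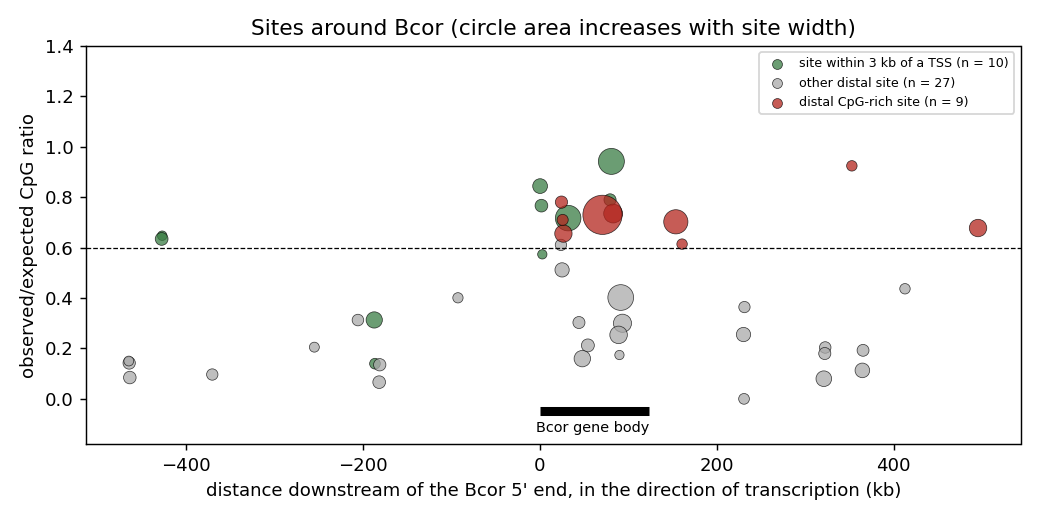
Observed/expected CpG ratio (y axis) of all 46 H3K27ac sites within 500 kb of the 5′ end of Bcor against their distance from it (x axis, kb, positive in the direction of transcription). Circle area increases with width, the black bar is the gene body and the dashed line is the ratio limit of 0.6. The 9 distal CpG-rich sites all lie on the positive side, 5 of them over the gene body, and most other distal sites lie on that side too.

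Other places with several sites were few. When sites less than 50 kb apart were joined, the 226 sites formed 198 loci, of which 177 had a single site, 18 had 2 and 3 had more. The locus of Bcor, described above, had 5. Another had 3 sites within 3.08 kb at Zfp503, 2 in a coding exon and 1 beyond the 3′ end. Pairs of sites were located near Nr2f2, Dlx2 and Egr1, among others.

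Distal CpG-rich sites stood more alone than other distal sites. Another H3K27ac site of any kind was within 1 kb of 111 of them (49.1%, interval 42.7 to 55.6%), compared to 71.6% of other distal sites. The difference was -23.0 ± 19.1 percentage points (mean ± SD over 20 chromosomes) and below 0 on 19 of them (adjusted p = 8.01e-05, exact sign-flip permutation). With a gap of 5 kb the shares were 63.3% and 86.0%. At the gap of 1 kb, the share was 59.5% for CpG-rich sites within 1 kb of a TSS and 72.6% for those 1 to 3 kb away.

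Repeats took up less of these sites than of other distal sites. This was not particular to them, since CpG-rich sites within 1 kb of a TSS had a mean repeat content of 7.11% and those 1 to 3 kb away 8.32%. The mean repeat content of the 226 sites was 9.96%, compared to 20.02% at other distal sites. The difference was -10.2 ± 5.30 percentage points over 20 chromosomes (lower on 18 of them, adjusted p = 2.29e-05, exact sign-flip permutation). No repeat base was found in 72 sites (31.9%), compared to 19.4% of other distal sites, and 7 sites consisted mostly of repeats. When GC content and CpG ratio were taken from the bases outside repeats, 344 sites met the limits and the difference turned to 10.8 points higher (adjusted p = 0.00198, same exact permutation test). Among the 226 was a site of 200 bp on chromosome 19 that was entirely repeat and met the ratio limit with 3 CpGs and a ratio of 1.72. The intronic sites in Camk2b and Zfp664 were also entirely repeat, with 33 and 10 CpGs.

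A CGI overlapped 181 of the 226 sites (80.1%, interval 74.4 to 84.8%), compared to 0.357% of other distal sites and 98.7% of CpG-rich sites within 1 kb of a TSS. Since CGIs are defined by the same kind of composition, this is a description. Read from the side of the CGIs, 2295 of 16964 were over 3 kb from a TSS, and 428 of these (18.6%, interval 17.1 to 20.3%) overlapped an H3K27ac site of any composition. At CGIs within 1 kb of a TSS the share was 72.3% (9864 of 13635). Among distal CGIs it was 30.3% in intergenic DNA (255 of 842), 20.1% in introns (93 of 462) and 8.07% in exons (80 of 991), with intervals that did not overlap. The exonic value was the lowest of the 3, although exons held a larger part of the distal CpG-rich sites than of other distal sites. Distal CGIs with a site had a median length of 373.5 bp and those without had 313 bp. A CGI was also overlapped by 302 distal sites that were not CpG-rich. These had a median width of 1116.5 bp, a median GC content of 53.7% and a median CpG ratio of 0.46.

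Short motifs of DNA-binding proteins were counted in the central 200 bp on both strands. The GC box GGGCGG, recognised by SP and KLF factors, was present in 81 of the 226 sites (35.8%, interval 29.9 to 42.3%), in 3.29% of other distal sites, in 47.5% of CpG-rich sites within 1 kb of a TSS and in 7.15% of all sites. As the motif holds a CpG, its share is tied to the rule. The AP-1 motif TGANTCA, which has no CpG and is bound by FOS and JUN proteins, was found in 7 distal CpG-rich sites (3.10%, interval 1.51 to 6.25%), compared to 8.98% of other distal sites, 1.59% of CpG-rich sites at TSSs and 8.10% of all sites. The TEAD motif GGAATG was present in 13.3% (interval 9.46 to 18.3%) and in 13.05% of other distal sites, compared to 6.18% at TSSs and 12.3% of all sites. In AP-1 matches the distal CpG-rich sites were thus closer to CpG-rich sites at TSSs, and in TEAD matches they were closer to other distal sites. Most fixed letters of the AP-1 motif are A or T, so its share is tied to the GC limit of the rule. The likeness to the GC-rich sites at TSSs is therefore a description only.

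**Figure D5:**
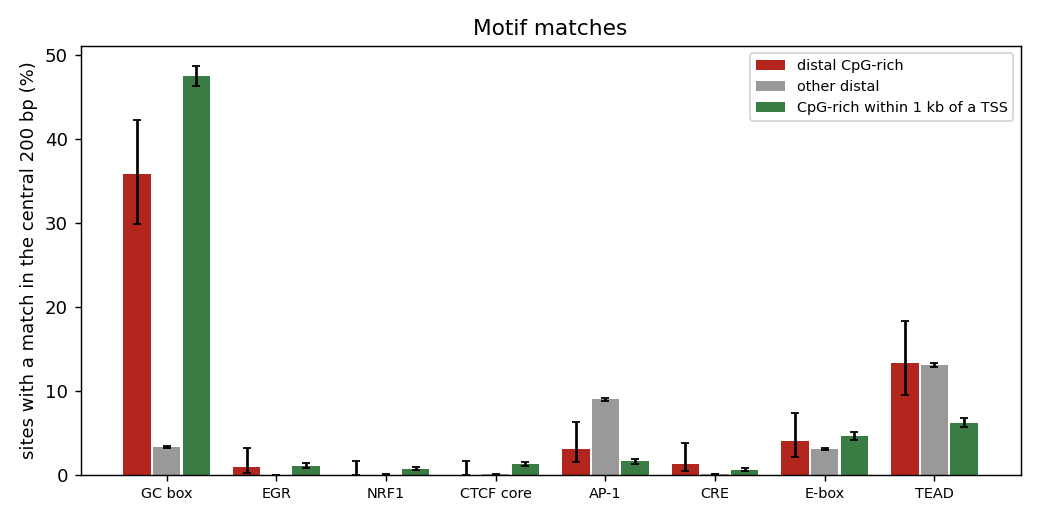
Share of sites (y axis, %) with at least 1 match to each motif (x axis) in the central 200 bp, either strand, for distal CpG-rich sites (n = 226), other distal sites (n = 84698) and CpG-rich sites within 1 kb of a TSS (n = 7152). Error bars are 95% Wilson intervals. GC box matches are at 35.8, 3.29 and 47.5%, and AP-1 matches at 3.10, 8.98 and 1.59%.

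The remaining motifs were rare. The E-box CACGTG was found in 3.98% of distal CpG-rich sites and in 3.24% of all sites. The cAMP response element TGACGTCA was in 3 of them (1.33%), in 0.196% of all sites and in 0.615% of CpG-rich sites within 1 kb of a TSS. The EGR motif GCGTGGGCG was in 2 (0.885%), in 0.107% of all sites and in 1.09% of CpG-rich sites at TSSs, and these 2 were the Nova2 exon printed above and the densest site on chromosome 17. Neither the NRF1 motif GCGCATGCG nor the CTCF core CAGGGGGCG was present in any of the 226, for which 3 counts correspond to a share of 1.33% and the Wilson interval reaches 1.67%. Over all sites they were in 0.0917 and 0.168%, and at CpG-rich sites within 1 kb of a TSS in 0.699 and 1.30%. All motifs of this group hold a CpG, so that their shares are tied to the rule as that of the GC box. The EGR and CTCF letters end in bases that overlap a GC box when a G follows. A match describes the letters only, and none of these shares was tested.

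Some of the sites had sequence in common, which limits how surely reads can be placed on either copy. With at least 10 shared stretches of 20 bases as the criterion, 7 pairs were found among the 226. The pair with the largest share was on chromosome 6, where the printed site near Rny3 and a site of 205 bp at chr6:47672922-47673126 had 57.0% of such stretches of the shorter site in common. A pair on chromosome 14 had 37.4% and a pair of sites of 678 bp each on chromosome 8 had 28.1%. Mapping between these copies was not tested.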

How the data were processed

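H3K27ac and input chromatin from iMEF cells had been sequenced in 14 libraries (8 groups). Per the study's methods and processing notes, the authors used Trim Galore for trimming, BWA for alignment to mm10 and SAMtools for filtering. They merged replicates with Picard, called narrow peaks with MACS and joined the peaks of all samples. The deposited values are genome positions only, with no count or score, so depth is unknown and a joined site can be wider than in any sample. Starts were read as counted from 0 and are printed from 1.

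Sites on chromosomes 1 to 19 and X (122171) were compared with GRCm38 sequence and GENCODE release M21 (the authors used a later release). Exon took precedence over intron. CGIs were found in repeat-masked sequence from scores of 17 per CpG and -1 per remaining base, with at least 200 bp, 50% GC and a ratio of 0.6. The 6 differences between distal CpG-rich and other distal sites were computed per chromosome and tested by two-sided exact sign-flip permutation with Benjamini-Hochberg adjustment. The smallest p this allows is 1.91e-06. The procedures were tested on simulated data. Alternatives changed the distance, GC, ratio, width, repeat, annotation and neighbour limits. The members, lists and tests were chosen with earlier results of these data known. Named sites were the 8 widest, the 6 densest of at least 300 bp, the 12 genes with most sites, the 4 most isolated, those next to each limit, and members of fixed gene lists. Nearest genes, loci and some exonic genes were named after their positions had been seen. A locus with several sites is not reported here. Python 3.11.15, numpy 2.4.6, pandas 2.3.3, scipy 1.17.1 and matplotlib 3.10.9 were used.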

Additional observations from a re-analysis of the deposited data

Results flagged for a closer look

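The list also held 57 sites on 15 sequences outside chromosomes 1 to 19 and X. They entered no comparison and were flagged because they are data outside the main measurement.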

How the results depend on the processing

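No paired analysis was possible because sites carry neither sample nor replicate. The number of distal CpG-rich sites (226) depended on the limits. It was 394 with a TSS distance over 1 kb, 488 with protein-coding TSSs only, 410 with a GC limit of 50%, 116 with 60%, 90 with a CpG ratio of at least 0.75, 344 with composition outside repeats and 447 with curated RefSeq starts. Of the 103 values of the 6 tested differences under alternatives, 96 kept their direction and their side of 0.05. The intergenic difference was weaker, at 5.81 percentage points with a distance over 1 kb, 1.99 with protein-coding TSSs, 3.54 with all RefSeq starts and 1.57 with curated RefSeq starts. In the same order, 41.6, 37.5, 37.8 and 36.5% of the CpG-rich sites were intergenic, so intergenic sites were no longer the majority. The log2 width ratio was weaker, at 0.12 with a GC limit of 50% and 0.12 with composition outside repeats. The repeat difference was reversed, at 10.8 points, with composition outside repeats. The share of distal CGIs with a site moved from 18.6 to 26.2% with stricter CGIs (at least 500 bp and 55% GC) and to 4.21% on unmasked sequence. The causes were not tested. The RefSeq alternatives, the omission of sites near Bcor, the widest site per locus and the restriction to chromosomes with at least 5 sites were chosen after seeing the data, and the last 3 changed no direction and no side of 0.05. Without read counts, neither depth nor replicate error can be given for any site.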
